A study of Homo sapiens with 9 samples.

Results

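SF3B1 binding sites were examined in 10 genes of serine/arginine-rich (SR) splicing factors: SRSF1, SRSF2, SRSF3, SRSF4, SRSF5, SRSF6, SRSF7, SRSF10, SRSF11 and TRA2B. A site was counted when its centre lay within the GRCh38 RefSeq span of a gene and on the gene's strand. This gave 287 of the 96852 sites in the list, or 0.296%. The sites came from iCLIP in K562, an established human leukaemia line, in which proteins were crosslinked to RNA with ultraviolet light (400 mJ/cm2 at 254 nm) and immunoprecipitated with their RNA. SF3B1 was precipitated from 3 samples of the SF3B1 wt/wt line and from 2 samples of the SF3B1 K700E/wt line, both from one supplier, and U2AF2 from 4 samples of SF3B1 wt/wt cells of another supplier. The only treatment named for any group was the crosslinking. The labels attach the list to the 3 SF3B1 wt/wt samples, whereas its header speaks of sites found by all replicates of either condition, so no site is assigned to a genotype here. The K700E and U2AF2 samples were not analysed here.

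SR proteins carry RNA recognition motifs (RRMs), which bind exonic sequences, and a domain rich in arginine and serine, through which they recruit the spliceosome. Many of their genes contain a poison exon, a highly conserved cassette with a premature stop codon. Its inclusion sends the transcript to nonsense-mediated decay, and several SR proteins promote inclusion of the poison exon of their own gene, which limits their own level. SF3B1 belongs to the U2 small nuclear ribonucleoprotein, the particle that recognises the branch point upstream of each 3′ splice site. Exon and intron borders of the build were not used here, so sites are located by their distance from the annotated gene start and not by exon, and none is assigned to a poison exon.

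The list merged its replicates, held no read numbers and had a score of 0 for every site. The depth behind a site and the spread between samples are therefore unknown. All comparisons below are descriptions of one list, with no test. Transcript abundance was not measured, so fewer RNA molecules and fewer contacts per molecule cannot be told apart. Marker genes of cell lineages were also counted. Of 10 erythroid genes, 6 held sites, with 121 in TFRC, 17 in TAL1 and 6 in GATA1. Over all protein-coding genes, 38.0% held at least 1 site on their strand. The fetal globin genes HBG1 and HBG2, HBZ and KLF1 held 0. None of 9 lymphoid genes, among them CD79A and CD3E, held a site. The labels describe the line as derived from a lymphoid leukaemia. A site needs transcribed RNA, whereas a gene at 0 sites may still be expressed, so these counts do not establish the lineage.

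Sites were found in 9 of the 10 SR protein genes, and each of these 9 held more than 10 sites. Over all 20043 protein-coding genes, 38.0% held at least 1 site on their strand and 14.8% held at least 10. Among the 11834 genes of 3 to 50 kb, the length range of the SR genes, these shares were 38.4% and 12.8%. SRSF11 had the most sites, 77, and was 83rd of all protein-coding genes in number of sites. TRA2B followed with 44, SRSF4 with 39, SRSF3 with 27, SRSF10 with 26, SRSF7 with 25, SRSF5 with 20, SRSF2 with 18 and SRSF1 with 11. The 10 genes had a median of 25.5 sites, against 7 in the other 7600 genes with a site. No site lay on the opposite strand of the 9 genes with a strand in the RefSeq promoter table, all but SRSF2. Such a site was found in 3.45% of the 6386 protein-coding genes that had a site and an entry in that table. No site lay closer than 958 nt to the start of its gene span. The last site lay 64 nt before the annotated end in SRSF1, 205 nt in SRSF2, 313 nt in SRSF4 and 397 nt in SRSF5. In the other genes with a site this distance was 2605 nt or more. The nearest site on the same strand outside any span lay 8193 nt beyond the end of SRSF1.

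**Figure D1:**
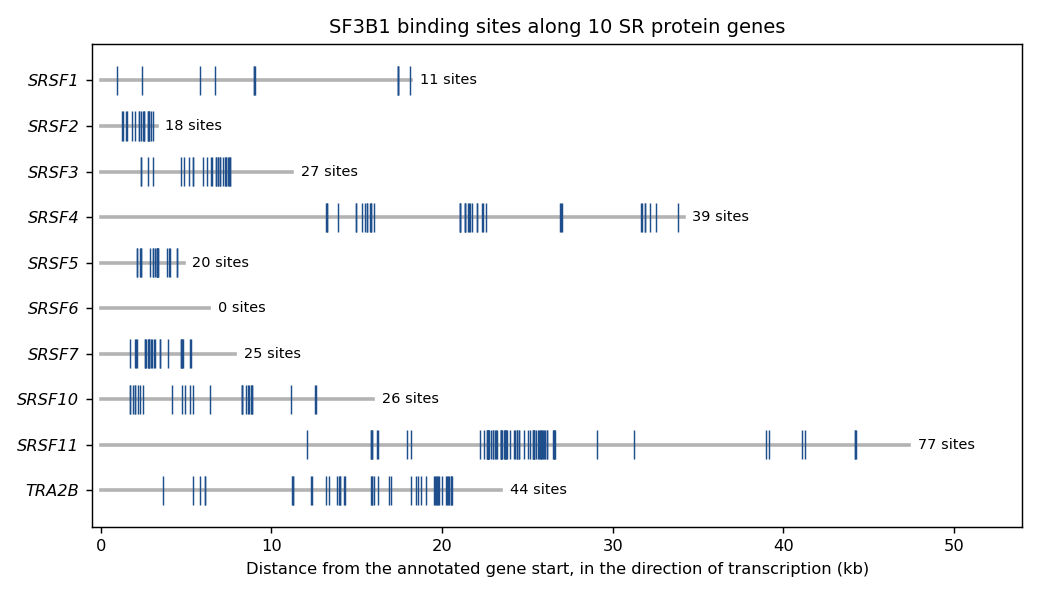
Each grey line is the RefSeq span of one gene, drawn to scale from the annotated start (0 kb) in the direction of transcription, and each blue tick is one binding site. SRSF2, SRSF5 and SRSF7 are short and densely marked, 59 of the 77 sites of SRSF11 lie between 22.3 and 26.6 kb, and SRSF6 has none.

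Relative to gene length, the order was different. SRSF2 had 5.46 sites per kb, SRSF5 4.11, SRSF7 3.17, SRSF3 2.40, TRA2B 1.88, SRSF10 and SRSF11 1.63 each, SRSF4 1.14 and SRSF1 0.604. The 3 densest genes were also the 3 shortest of those with a site. SRSF2 spans 3.297 kb and ranked 5th in density when the 4630 protein-coding genes holding 5 or more sites were ordered. SRSF5 ranked 38th, SRSF7 102nd and SRSF3 204th, whereas SRSF1 ranked 1490th. In the other 7600 genes with a site, the median was 0.199 sites per kb, with quartiles of 0.0705 and 0.508 and a 95th percentile of 1.74. All 9 SR genes with a site exceeded the upper quartile, and 5 exceeded the 95th percentile. In other genes of 3 to 50 kb with a site, the median was 0.307 sites per kb and the 95th percentile 2.08. Of the SR genes, only SRSF2, SRSF5, SRSF7 and SRSF3 exceeded this 95th percentile.

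**Figure D2:**
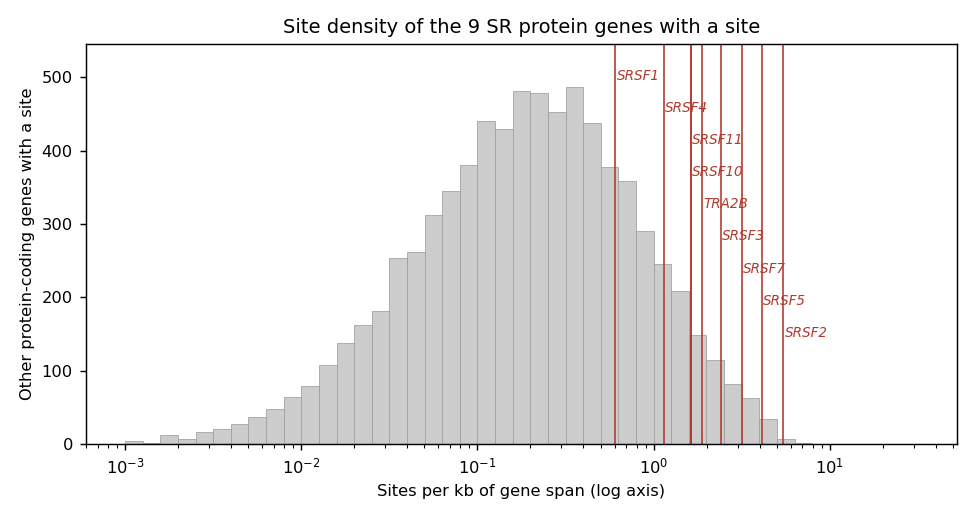
Grey bars count the other protein-coding genes of any length with a site by their sites per kb of gene span, on a log axis. Red lines mark the 9 SR protein genes with a site. All 9 lines lie right of the upper quartile of 0.508 sites per kb, and the line of SRSF2, at 5.46, lies in the extreme tail.

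Among SR proteins with a pair of RRMs, the number of sites ran from 0 in SRSF6 to 39 in SRSF4. SRSF1, the prototype of the family, which acts in constitutive and alternative splicing, lies on the minus strand at chr17:57989038-58007246. Its 11 sites were scattered. The first lay 958 nt from the annotated start, the next at 2412, 5807 and 6673 nt, 3 lay from 8981 to 9022 nt, and 4 lay near the far end, from 17392 to 18144 nt. The gap of 8370 nt between the last groups is the longest between neighbouring sites in any of the 10 genes. RefSeq gives only the outer limits of all transcripts of SRSF1, and the end used in K562 cells was not measured.

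SRSF4, which has one of the longest arginine/serine domains of the family, lies on the minus strand at chr1:29147743-29181900. Its first 13210 nt were free of sites. The 39 sites then formed separate groups, when sites at most 1000 nt apart were joined. There were 4 sites at 13.2 to 13.9 kb, 10 at 15.0 to 16.0 kb, 15 at 21.1 to 22.5 kb, 3 close to 27 kb, 6 at 31.7 to 32.5 kb and 1 at 33.8 kb. The first 4 sites also lay within the span of MECR, a gene on the same strand that overlaps SRSF4, and could belong to either transcript. Without them SRSF4 had 35 sites.

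SRSF5, a regulator of alternative exons on the plus strand at chr14:69767142-69772005, held its 20 sites in one group from 2138 to 4466 nt. The median distance between neighbours was 29 nt, the shortest of the 10 genes. Its largest cluster, made by joining sites at most 60 nt apart, had 6 sites at 3280, 3287, 3297, 3316, 3337 and 3366 nt. This cluster covers chr14:69770420-69770510.

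SRSF6, which also carries a pair of RRMs and an arginine/serine domain, lies on the plus strand at chr20:43457896-43464243. It was the only one of the 10 genes with 0 sites. The nearest site on its strand lay 69.1 kb beyond its end, and the nearest upstream lay 2100 kb before its start. The stretch around it without a site on either strand, 2039 kb, held only 2 protein-coding genes, PTPRT and SRSF6. Such stretches were common: 281, this one included, were as long or longer. Most protein-coding genes held 0 sites, since 38.0% held any. Without read numbers SRSF6 cannot be told from a gene whose sites did not pass the reproducibility rule.

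With the SR-like proteins left aside, 3 of the SR proteins have a single RRM. All 3 of their genes held sites, 18 to 27 each, at 2.40 to 5.46 sites per kb. SRSF2, a splicing activator that is itself recurrently mutated in myeloid neoplasms, lies at chr17:76734115-76737411. All of its 18 sites were on the minus strand, and this gave its strand, which the promoter table did not supply. They lay in one group from 1245 to 3091 nt, with no gap longer than 334 nt. The last 50% of the gene held 14 of them. The largest cluster had 4 sites, at 2787, 2799, 2822 and 2837 nt.

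SRSF3, the smallest SR protein and an adaptor for mRNA export, lies on the plus strand at chr6:36594362-36605600. It had a small group of 4 sites from 2.3 to 3.1 kb and a large one of 23 sites from 4.7 to 7.6 kb. The last 3645 nt of the annotated span held no site. Its densest 1-kb stretch held 14 sites, 51.9% of the total, between 6741 and 7593 nt.

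SRSF7, which adds a zinc knuckle to its RRM and also serves in mRNA export, lies on the minus strand at chr2:38743599-38751494. Its 25 sites formed one group from 1732 to 5290 nt, and the last 2605 nt were empty. The group had a dense front, with 13 sites between 2605 and 3469 nt, and a second concentration of 5 sites between 4689 and 4826 nt. SRSF7 differed from SRSF2 and SRSF5 in having more sites in the first 50% of the gene, 18, than in the last 50%, 7.

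The SR-like proteins held 147 of the 287 sites, or 51.2%, and each had a density between 1.63 and 1.88 sites per kb. SRSF10, which represses splicing when it is dephosphorylated, as in heat shock, lies on the minus strand at chr1:23964347-23980327. Its 26 sites fell into 6 groups, of which the 3 largest had 8 sites at 1.7 to 2.5 kb, 5 at 4.2 to 5.4 kb and 9 at 8.3 to 8.9 kb. SRSF10 had the widest median distance between neighbours after SRSF1, 166 nt against 792 nt.

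TRA2B encodes Tra2-beta, an activator that binds purine-rich exonic enhancers. The gene lies on the minus strand at chr3:185914558-185938014. Sites became denser along the gene. There were 5 sites in the first 11 kb, 3 at 11.2 to 11.3 kb, 10 at 12.3 to 14.3 kb, 7 at 15.8 to 17.0 kb and 19 at 18.2 to 20.6 kb. The last 50% of the gene held 36 of the 44 sites, although the last 2859 nt held none.

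SRSF11, a U2AF-interacting SR-like protein, lies on the plus strand at chr1:70205696-70253052 and had the most uneven distribution. A single block from 22251 to 26636 nt, at chr1:70227945-70232334, held 59 of its 77 sites, or 76.6%. Inside the block there were 13.5 sites per kb and no gap longer than 379 nt, against 0.419 sites per kb in the rest of the gene. The largest cluster of all 10 genes lay near its upstream end, with 8 sites at 22655, 22660, 22674, 22694, 22703, 22710, 22715 and 22722 nt. The densest 1-kb stretch of SRSF11, from 22655 to 23631 nt, held 20 sites. Only 11 of the 7609 protein-coding genes with a site, or 0.145%, SRSF11 included, had a 1-kb stretch with 20 or more. The position of the block relative to exons was not determined.

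RefSeq lists 2 starts for SRSF11, an outer one at position 70205696 and an inner one 15684 nt downstream of it, at position 70221380. The sites are placed almost wholly behind the inner start: 1 site lay between the starts, at 12103 nt, and the other 76 lay downstream of the inner start, the first of them 175 nt beyond it. The 100 bases before each start, at chr1:70205596-70205695 and chr1:70221280-70221379 of GRCh38.p14 on the plus strand, are shown to fix these landmarks, with the last 10 bases before the start in capitals.
SRSF11 outer start: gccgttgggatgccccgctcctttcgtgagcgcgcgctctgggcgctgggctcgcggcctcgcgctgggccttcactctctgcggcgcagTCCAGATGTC
SRSF11 inner start: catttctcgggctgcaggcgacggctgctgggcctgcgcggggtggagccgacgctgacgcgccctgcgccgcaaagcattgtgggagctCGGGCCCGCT
Both stretches were rich in G and C, with 72% and 73%. Which start is used in K562 cells was not measured.

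**Figure D3:**
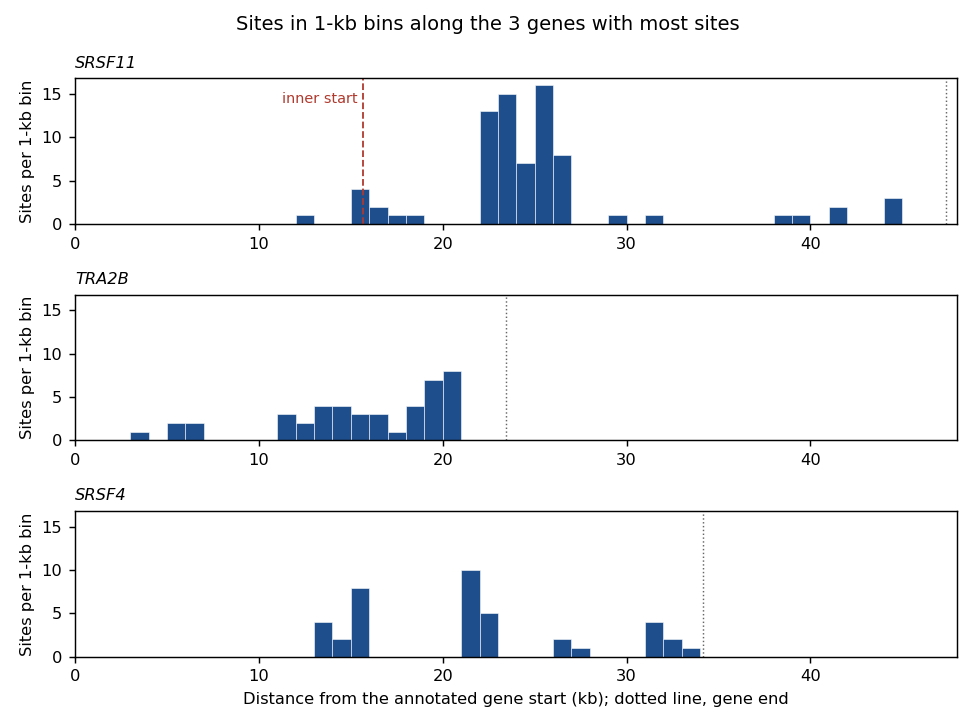
Bars count sites in 1-kb bins from the annotated start of SRSF11, TRA2B and SRSF4, the dotted lines mark the gene ends and the dashed red line the inner start of SRSF11. SRSF11 has 59 sites in the 5 bins from 22 to 27 kb, TRA2B fills up towards 20.6 kb, and SRSF4 has separate groups after 13.2 kb.

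Local density was high in most of the genes. At least 10 sites fell within 1 kb in 7 of the 10 genes: SRSF2, SRSF3, SRSF4, SRSF5, SRSF7, SRSF11 and TRA2B. Of the 7609 protein-coding genes with a site, 518, or 6.81%, had such a stretch. It needs at least 10 sites, which 2965 protein-coding genes held, 9 of the SR genes among them. The contrast is thus not separate from the higher numbers of sites in the SR genes. At least 5 sites within 1 kb were found in 8 of the 10 genes, all but SRSF1 and SRSF6, against 33.4% of the protein-coding genes with a site. SRSF10 reached 9 sites and SRSF1 reached 4. The median over the 9 genes with a site was 12, against 3 in the other genes with a site.

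Each span was divided into 10 equal parts to place the sites. The part next to the start was nearly empty. It held 1 of the 287 sites, the site at 958 nt in SRSF1, against 4.49% of the sites in the 4621 other genes with at least 5 sites. The first site lay between 958 nt (SRSF1) and 13210 nt (SRSF4) from the annotated start. No site fell within the window from 250 bases before to 50 bases after any annotated start in the RefSeq promoter table, which was read for 9 of the genes, all but SRSF2. A site in such a window was also rare elsewhere, in 2.33% of 6386 protein-coding genes that had a site and an entry in the table.

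With the genes pooled, sites were most frequent in the middle. Parts 5 to 7 were not set in advance and are the highest of the 10 in these same counts. They held 175 of the 287 sites, or 61.0%, against 33.4% in the other genes with at least 5 sites. Without SRSF11, whose block falls into parts 5 and 6, the share was 54.3% of 210 sites. It ranged from 27.3% in SRSF1 to 85.2% in SRSF3. The fullest part lay within parts 5 to 7 in SRSF3, SRSF4, SRSF5, SRSF10 and SRSF11. It lay elsewhere in SRSF1 (part 10, 4 sites), SRSF2 (part 9, 5 sites), SRSF7 (part 4, 10 sites) and TRA2B (part 9, 16 sites). The last part held 17 sites, or 5.92%, against 13.4% in the other genes. Of these 17, SRSF4 had 7, SRSF1 had 4, SRSF11 had 3, SRSF5 had 2 and SRSF2 had 1. SRSF3, SRSF7, SRSF10 and TRA2B had 0 sites in the last part. The stretch after the last site, given above for SRSF3, SRSF7 and TRA2B, was 3386 nt in SRSF10.

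**Figure D4:**
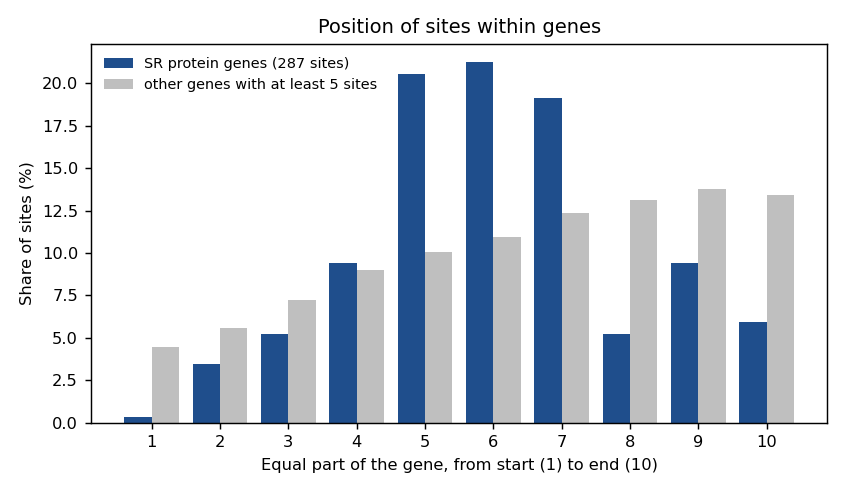
Bars give the share of sites in each of 10 equal parts of the gene span, from start to end. Blue is for the SR protein genes (287 sites) and grey for other protein-coding genes of any length with at least 5 sites. The blue bars are highest in parts 5 to 7, which hold 61.0% of the sites, while the grey bars rise from 4.49% in the first part to 13.4% in the last.

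Pooled over the genes, neighbouring sites were closer together than in other genes, with a median distance of 89 nt against 157 nt. SRSF11, with the most sites, adds the most distances to the pool. The medians of SRSF1, 792 nt, and SRSF10, 166 nt, were above the 157 nt, and those of the other SR genes with a site were below it. Joining sites at most 60 nt apart gave 164 clusters, of which 92 (56.1%) were single sites, against 63.2% of the 59758 clusters in other genes. The mean was 1.75 sites per cluster, against 1.57. These contrasts are not separate from the higher number of sites per kb in the SR genes. The other genes were of every length.

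Sites of this list often come in pairs, and distances of 25 to 45 nt outnumber those of 46 to 66 nt, a span of the same width. The SR genes held 70 pairs of the first kind and 38 of the second, a ratio of 1.84. The ratio in the other protein-coding genes was 3.60, from 21452 and 5953 pairs. Of the 9 genes with pairs, 6 lay below that value. SRSF11, which had the most pairs, had 23 at 25 to 45 nt and 18 at 46 to 66 nt, and SRSF7 had 5 and 7. The ratio was 2.00 in SRSF2 (2 and 1 pairs), SRSF5 (6 and 3) and SRSF10 (4 and 2), and 2.50 in TRA2B (10 and 4). The nearer span was further ahead in SRSF4, with 10 and 2 pairs, in SRSF3, with 6 and 1, and in SRSF1, with 4 and 0. Without SRSF11 the ratio was 2.35, from 47 and 20 pairs. Several pairs can share a site, so the pairs of one gene are not independent. All pairs of a gene were counted, not only neighbours, so densely placed sites add pairs to both spans. How far the ratio depends on density was not tested.

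At a longer range, 82 pairs had a distance of 140 to 180 nt and 53 a distance of 60 to 100 nt, which gave a ratio of 1.55. Other protein-coding genes gave 1.72. The ratio compares these spans only and does not mark 140 to 180 nt as a preferred distance. SRSF11 had 30 and 27 pairs, and the other 9 genes together had 52 and 26, a ratio of 2.00. No gene with pairs had fewer at the longer distance.

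**Figure D5:**
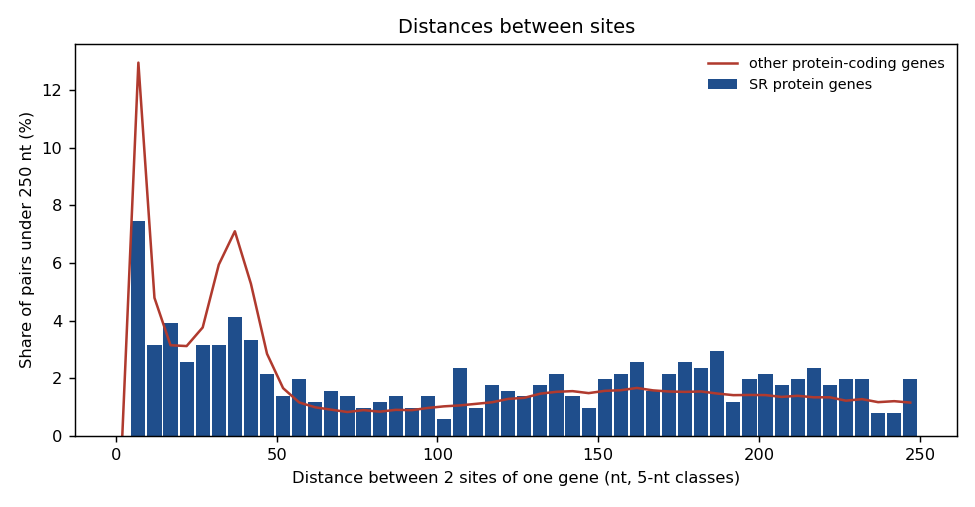
Bars give, for the SR protein genes, the share of site pairs in 5-nt classes of distance among all pairs of one gene less than 250 nt apart, and the red line gives the same for other protein-coding genes. The other genes have a peak near 37 nt, with 7.10% of pairs 35 to 39 nt apart against 3.14% at 15 to 19 nt. The SR genes rise less there, with 4.12% (21 pairs) at 35 to 39 nt against 3.92% (20 pairs) at 15 to 19 nt. Their shares were 2.55% (13 pairs) at 20 to 24 nt and 1.37% (7 pairs) at 50 to 54 nt. In these 2 classes the other genes had 3.11% and 1.65%. The SR genes have a larger share beyond 100 nt.

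Other proteins of the SR pathway were counted in the same way. Of 27 genes for further SR-like and SR-related proteins, 23 held sites and 21 held at least 10, with a median of 0.916 sites per kb. Over all protein-coding genes, 38.0% held at least 1 site and 14.8% at least 10. RBM39, a U2AF2-related splicing factor, had 101 sites, BCLAF1 66 and SRRM1, a splicing coactivator, 62. LUC7L3, a U1-associated protein, and SRRM2, a scaffold of nuclear speckles, had 21 and 20 sites in their densest kb, as many or more than SRSF11 (named for these values). The 4 genes with 0 sites were SRSF8, an SR gene that arose as a retrocopy of SRSF2, SRSF12, SRRM4 and LUC7L2. TRA2A, the paralogue of TRA2B, had 39 sites and 1.43 sites per kb, against 44 and 1.88 in TRA2B. SRSF9, which also has a pair of RRMs, had 10 sites and 1.24 per kb.

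Of 11 genes for kinases and nuclear importers of SR proteins, 10 held at least 10 sites, against 14.8% of all protein-coding genes. SRPK3 held 0. TNPO3, the importer of phosphorylated SR proteins, had 57 sites, TNPO1 51 and SRPK1, which phosphorylates SR proteins in the cytoplasm, 46. CLK1, a nuclear SR protein kinase, had the highest density of this list, 3.18 sites per kb, close to the 3.17 of SRSF7, and was named after its value was seen. The median of the list was 0.550 sites per kb, against 1.75 over the 10 SR protein genes with SRSF6 included. The lists differ in gene length, with medians of 13.6 kb for the 10 SR protein genes, 36.6 kb for the further SR-like and SR-related genes and 24.7 kb for the kinases and importers. Among genes of 3 to 50 kb, the medians were 1.75 sites per kb over the 10 SR protein genes, 1.42 over 18 further SR-like and SR-related genes and 0.713 over 6 kinases and importers.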

How the data were processed

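The deposited table is 1 BED list of SF3B1 sites from K562. Per the file headers, the authors merged sites to 5 nt and kept those found in all replicates of either condition. The submitters' processing notes name FastQC 0.11.8, STAR 2.7.3a and 2.6.1b, UMI-tools 1.0.0, bedtools 2.27.1 and builds GRCh38.p10 and GRCh38.p12, with no role given. The site caller is not given in the sources used here. The deposited score was 0 for all sites and was not used. Merging limits how close sites can lie, and the reproducibility rule can leave out sites in rare RNA.

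Site centres, 1-based, were set against RefSeq gene spans (GRCh38.p14, whose chromosome positions match the earlier patches). Strands came from a RefSeq promoter table for 15843 protein-coding genes and otherwise from the strand with more sites. A site within several genes was counted in each. The members and lists were chosen with earlier results of these data known. The planned placement relative to exons was not made. All 10 listed genes are named; of the wider lists, the rule named the 3 genes with most sites and SRSF8, and all others were named after their values were seen. PRPF4B is not analysed here. Some marker genes of the fixed lists are not reported here. Counting was tested on simulated data. Software was Python 3.11.15, with matplotlib 3.10.9, NumPy 2.4.6 and pandas 2.3.3.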

Additional observations from a re-analysis of the deposited data

How the results depend on the processing

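Of 68 recalculations of 20 results, 67 stayed within 1.5 times the reported value. The exception follows from its construction: counting the last 20% of each gene in place of the last 10% raised the number of sites there from 17 to 44. Several of the others could not move. Taking the 5′ end of each site as its position leaves distances between sites unchanged. Of the 10 genes, only SRSF4 shares sites with another gene, and SRSF6 stayed at 0. The count of 67 is therefore no measure of stability. With 1 site per region number (the running number that close sites in the list can share) the 10 genes held 262 sites, with touching sites merged 278, and without sites shared with MECR 283; 9 genes held a site each time, also with a minimum of 5 sites. The distance spans were known from earlier work on this list, and 2 recalculations were chosen after seeing the data. No single replicate could be omitted. No paired analysis was possible because replicates are merged in the table. Depth is unknown, so 0 sites in SRSF6 sets no limit on its binding.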
